A study of Mus musculus with 6 samples.

Results

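The growth factor receptors of myeloid progenitors were followed as 9 genes: Kit, Flt3, Csf1r, Csf2ra, Csf2rb, Csf2rb2, Csf3r, Il3ra and Il6ra. They were chosen by name, as receptors for stem cell factor, FLT3 ligand, the colony-stimulating factors, interleukin 3 and interleukin 6. All 9 were found among the 47593 genes of the table. All 9 lay above the minimum mean set for testing, which was taken over the 6 libraries together. Total RNA had been sequenced from mouse femur bone marrow cells selected for c-Kit, the protein of the Kit gene. All 6 libraries came from cells that carried MLL-AF9, a leukaemia fusion of the histone methyltransferase MLL with AF9, delivered by the retrovirus MSCVneo and selected with G418. The cells were passaged serially in methylcellulose with cytokines that the labels do not name. In 3 libraries the fusion was unchanged (WT), and in 3 it carried the E531R substitution in its AF9 part, which the series title ties to a loss of binding to the corepressor BCOR. The fusion was expressed from a virus, every library carried it, and no cells without it were analysed here. Strain, age and the number of animals are not given in the labels used here.

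These receptors let early blood cells survive, divide and mature when a growth factor is present. Kit, Flt3 and Csf1r are receptor tyrosine kinases of one structural class. The others belong to the cytokine receptor family, whose members have no kinase of their own and signal through JAK kinases and STAT factors. Csf3r pairs with itself, while Csf2ra, Il3ra and Il6ra are alpha chains that bind their ligand and need a signalling partner. The partner is Csf2rb for the GM-CSF and interleukin 3 receptors and Il6st (gp130) for the interleukin 6 receptor. Mice have a second beta chain, Csf2rb2, which serves the interleukin 3 receptor. In marrow, Kit and Flt3 mark early progenitors, Csf3r the neutrophil line and Csf1r the monocyte and macrophage line.

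The 6 libraries held between 14161139 and 33459668 reads assigned to genes. Values are normalised read counts, in which the authors divided reads by 1 size factor per library. Nothing in the labels tells if the replicates came from separate cultures or animals, so p-values measure the spread between these libraries, which may be technical. WT replicate 3 stood apart: its values deviated from the WT mean with an SD of 0.402 on the log2 scale over tested genes, against 0.129 to 0.259 in the other 5 libraries. In the bulk samples used here, fewer cells of a type and less RNA per cell cannot be told apart.

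In E531R cells 5 of the 9 receptor genes were higher than in WT cells and 2 were lower. Csf1r rose most, 5.72-fold, followed by Csf2ra (1.90-fold), Csf2rb2 (1.77-fold), Csf2rb (1.38-fold) and Csf3r (1.29-fold). Flt3 fell 7.13-fold and Il3ra 2.88-fold, while Kit and Il6ra did not pass the test. Flt3 lay under the minimum mean in E531R and was tested only through WT. The test was limma, two-sided, on log2(value + 1) over 12991 genes, with a call at an adjusted p under 0.05. Of all genes tested 19.9% were called, 10.4% higher and 9.53% lower. The libraries of the groups did not overlap in 8 of the 9 receptor genes, against 44% of all genes tested. E531R lay above WT in 5 of them (21.2% of all genes) and below in 3 (22.8% of all genes). The median log2 fold change was 0.36 over the 9 genes and 0.01 over all genes tested. Without WT replicate 3 the count was 5 higher and 3 lower of 9, while 47.2% of all genes tested were then called. Without E531R replicate 1 or 2 it was 3 higher and 2 lower, while 804 or 814 of all genes tested were higher and 764 or 769 lower.

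**Figure D1:**
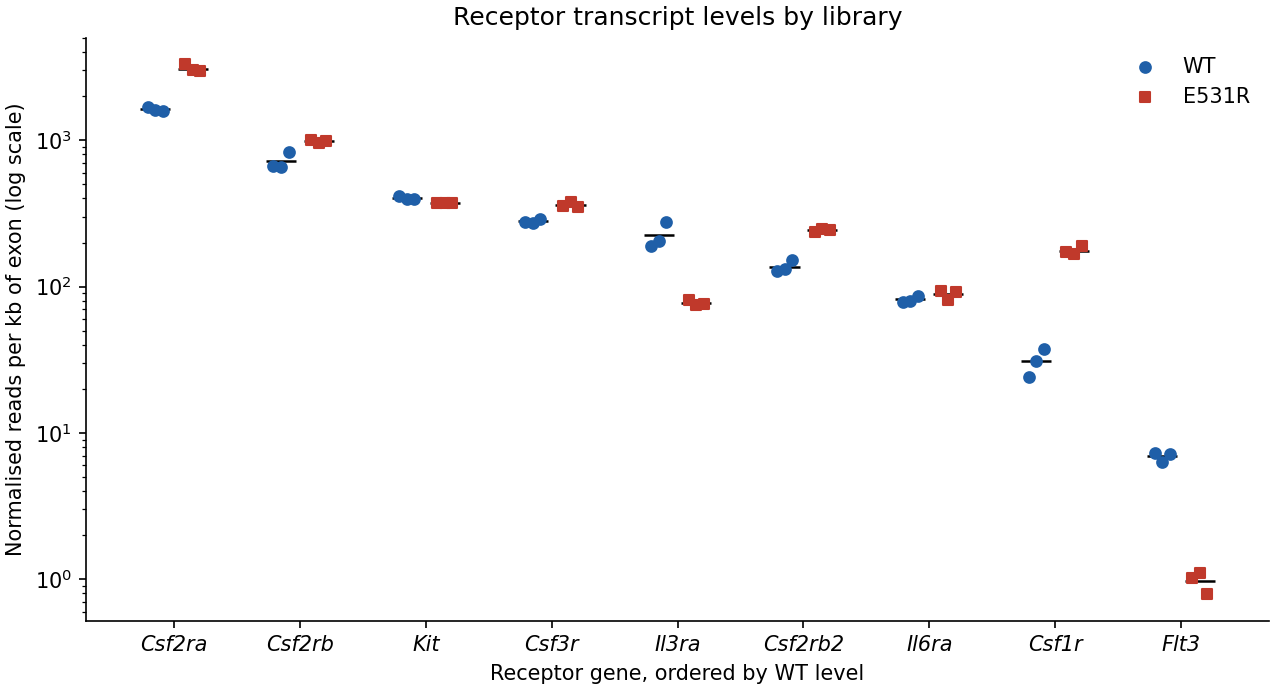
Normalised reads per kilobase of exon (log y axis) of the 9 receptor genes in each library, ordered by their WT mean; blue circles are WT, red squares E531R and black bars the mean of 3 libraries. Csf2ra is highest and Flt3 lowest in both groups, and Csf1r moves from a WT mean of 30.8 to 176 in E531R.

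Levels of different genes were compared per kilobase of exon, since longer transcripts collect more reads. In WT cells Csf2ra had 1626 ± 51.9 normalised reads per kilobase (SD, n = 3), followed by Csf2rb with 718 ± 99.6 and Kit with 403 ± 11.2. Csf3r had 279 ± 8.72 and Il3ra 224 ± 46.1, and these neighbours in the order overlapped between libraries. Below them lay Csf2rb2 with 137 ± 12.6, Il6ra with 81.6 ± 3.68, Csf1r with 30.8 ± 6.59 and Flt3 with 6.90 ± 0.503. The GM-CSF receptor chains thus stood above the receptor tyrosine kinases in WT cells on this scale.

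In E531R cells the order was the same at the top, with Csf2ra at 3091 ± 189 normalised reads per kilobase, Csf2rb at 988 ± 20.8 and Kit at 374 ± 0.457. Csf3r was next with 360 ± 14.7, and its libraries overlapped those of Kit. Csf2rb2 had 242 ± 6.55 and Csf1r 176 ± 11.2, both now above Il6ra with 88.7 ± 6.43 and Il3ra with 77.6 ± 3.50. The last pair overlapped between libraries, and its order turned when the longest coding transcript was used as the length (88.7 for Il6ra and 99.4 for Il3ra). Flt3 was last with 0.968 ± 0.162.

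Kit, the receptor for stem cell factor and the gene behind the selection of the cells, lies on chromosome 5 (75574916 to 75656722, GRCm38). Its normalised read counts were 3702, 3520 and 3539 in WT replicates 1, 2 and 3 and 3334, 3332 and 3340 in the E531R replicates. All 3 E531R values lay below all 3 WT values, and the groups did not overlap. The log2 fold change was -0.10 (SE 0.060; limma adjusted p = 0.28), with a 95% interval from -0.25 to 0.04. Without WT replicate 3 Kit passed the threshold at a log2 fold change of -0.11 (limma adjusted p = 0.0214), in a run that called 47.2% of all genes tested.

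Flt3, the receptor for FLT3 ligand on early lymphoid and myeloid progenitors, lies on chromosome 5 (147330741 to 147400489). Its normalised read counts were 44.7, 39.0 and 44.1 in WT and 6.25, 6.81 and 4.87 in E531R. These values rest on 28, 34 and 56 reads in WT and on 9, 7 and 5 reads in E531R. The groups did not overlap, nor did the 95% Poisson intervals, which cover counting error only: the lowest bound in WT was 27.0 and the highest in E531R 14.0. The log2 fold change was -2.65 (SE 0.22; limma adjusted p = 0.000246), and 1.35% of all genes tested fell more on this scale. The 250 bases of genome before its RefSeq start (chr5:147400490-147400739, GRCm38, minus strand, written 5′ to 3′, RefSeq) are given with those of Il3ra, the other gene that fell. Capitals mark matches to 4 motifs known from myeloid genes, searched on both strands: GAGGAA (the core bound by PU.1 and related ETS factors), TTNCNNAA (C/EBP), TGTGGT (RUNX) and TGACAG (MEIS).
Flt3: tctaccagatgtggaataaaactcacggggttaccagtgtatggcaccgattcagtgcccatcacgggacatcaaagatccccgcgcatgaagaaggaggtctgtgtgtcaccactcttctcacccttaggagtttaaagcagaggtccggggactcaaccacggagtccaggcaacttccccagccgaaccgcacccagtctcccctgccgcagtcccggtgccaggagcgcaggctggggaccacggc
Il3ra: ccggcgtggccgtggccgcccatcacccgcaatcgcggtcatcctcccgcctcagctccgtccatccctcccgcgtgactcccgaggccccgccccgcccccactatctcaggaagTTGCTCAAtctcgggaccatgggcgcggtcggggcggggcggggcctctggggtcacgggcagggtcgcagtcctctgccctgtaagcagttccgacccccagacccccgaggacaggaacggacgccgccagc
The window before Flt3 held no match to any of the 4 motifs, and that before Il3ra held 1, to TTNCNNAA.

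Csf1r, the receptor for macrophage colony-stimulating factor and interleukin 34, was the third receptor tyrosine kinase. Its normalised read counts were 139, 179 and 215 in WT replicates 1, 2 and 3 and 997, 963 and 1088 in E531R replicates 1, 2 and 3. Every E531R library was far above every WT library. The log2 fold change was 2.53 (SE 0.16; limma adjusted p = 7.68e-05), with a 95% interval from 2.15 to 2.91, and 1.49% of all genes tested rose more. A stretch of 873 bases of its exons overlaps Hmgxb3 on the opposite strand, and no source used here states if the counting used strand. The WT libraries had 1560 ± 227 normalised reads of Hmgxb3 and the E531R libraries 1355 ± 36.0 (SD, n = 3 each), and it did not pass (log2 fold change -0.19, limma adjusted p = 0.27). Markers of monocytes and macrophages moved with Csf1r: 8 of the 10 tested rose and 1 fell, against 10.4% and 9.53% of all genes tested. Of those that rose, Marco and Cx3cr1 had WT means of 0.383 and 5.70, under the minimum of 10. They were tested only through E531R. The summed level of all 14 listed markers ran from 26567 to 31411 in WT and from 29546 to 32563 in E531R. Most of that sum was Ly6c2, which did not pass (22715 ± 3954 in WT and 22415 ± 1108 in E531R), and Ccr2, which fell from 4448 ± 1431 to 788 ± 46.4 (SD, n = 3). The markers that rose were at lower levels, among them Mpeg1 from 382 ± 9.27 to 3649 ± 210.4 and Cd68 from 249.6 ± 26.4 to 1249.7 ± 71.4. C1qa, C1qb and C1qc, which encode complement chains made by tissue macrophages, had at most 2 reads over any group. The part of these cells in the Csf1r result was not tested.

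Over the 6 libraries the genes whose profiles lay nearest to that of Csf1r, by Euclidean distance of centred log2 values, were Lsp1 (distance 0.283), Sept5 (0.288) and Adam8 (0.292). Lsp1 encodes a leukocyte actin-binding protein, Sept5 a septin and Adam8 a membrane protease of leukocytes. Lsp1 rose from 73.4 ± 12.5 to 481 ± 11.3 normalised reads (SD, n = 3 each). The genes nearest to Flt3 were Atp8b2 (0.295), a lipid flippase gene, Sox12 (0.296), a transcription factor gene, and Gpr183 (0.318), an oxysterol receptor gene. Gpr183 fell from 36.9 ± 0.858 to 5.65 ± 1.55. With 2 groups of 3 libraries such a distance mostly reflects the size of the group difference.

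**Figure D2:**
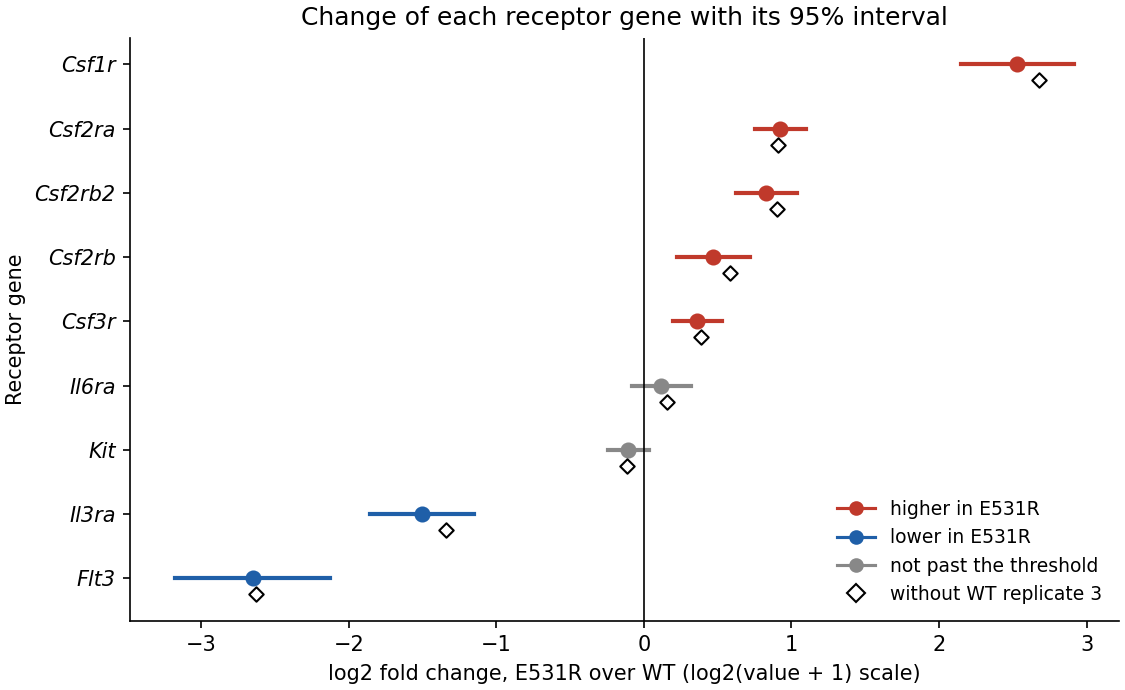
Log2 fold change of E531R over WT (x axis) for each receptor gene (rows), with its 95% interval; red and blue are past the threshold and grey is not, and open diamonds give the value without WT replicate 3. Csf1r lies at 2.53, Il3ra at -1.50 and Flt3 at -2.65, and the intervals of Kit and Il6ra include 0.

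The receptor for GM-CSF is built from Csf2ra and Csf2rb, and both genes rose. Csf2ra, the ligand-binding alpha chain on chromosome 19 (61223957 to 61228429), had 4842, 4585 and 4581 normalised reads in WT and 9492, 8646 and 8484 in E531R. The lowest E531R library was well above the highest WT library. Csf2ra changed by 0.92 on the log2 scale (SE 0.072; limma adjusted p = 0.000187). Csf2rb, the shared beta chain on chromosome 15 (78325752 to 78353847), had 4842, 4766 and 6057 in WT and 7308, 7019 and 7242 in E531R. WT replicate 3 lay nearest to the E531R libraries, though still below them. For Csf2rb the log2 fold change was 0.47 (SE 0.10; limma adjusted p = 0.0197). The Csf2rb call was lost when any 1 library other than WT replicate 3 was left out (limma adjusted p = 0.0602 to 0.0908). Without WT replicate 3 it was kept, with a log2 fold change of 0.58 (limma adjusted p = 1.08e-09). In that run 47.2% of all genes tested were called, against 19.9% with all 6 libraries. The smaller p is thus not particular to Csf2rb.

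Csf2rb2, the beta chain that serves only interleukin 3 in mice, lies beside Csf2rb on chromosome 15 (78282507 to 78305721), in the opposite orientation and 20030 bases away. It had 603, 623 and 716 normalised reads in WT and 1113, 1172 and 1158 in E531R, again with no overlap. Csf2rb2 changed by 0.83 on the log2 scale (SE 0.087; limma adjusted p = 0.00072). Some reads of this pair are hard to assign, because the coding sequences (GENCODE M21) share identical stretches. The coding sequences were identical at 92.9% of 2694 aligned positions. The longest identical stretch spans coding bases 2083 to 2324 of both genes, and a read inside it cannot be given to either gene:
Csf2rb and Csf2rb2: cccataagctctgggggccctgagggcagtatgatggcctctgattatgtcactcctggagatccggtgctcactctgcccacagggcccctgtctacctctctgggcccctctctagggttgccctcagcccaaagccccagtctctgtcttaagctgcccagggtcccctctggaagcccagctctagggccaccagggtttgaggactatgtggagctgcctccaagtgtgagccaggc
Among stretches of 120 coding bases aligned without a gap, the one with the most differences spans bases 309 to 428 of Csf2rb and 312 to 431 of Csf2rb2. It holds 22 differences, marked here in capitals, with bases counted from the start codon:
Csf2rb: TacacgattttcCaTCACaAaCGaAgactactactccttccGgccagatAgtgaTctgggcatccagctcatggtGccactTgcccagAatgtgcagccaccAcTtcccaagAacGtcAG
Csf2rb2: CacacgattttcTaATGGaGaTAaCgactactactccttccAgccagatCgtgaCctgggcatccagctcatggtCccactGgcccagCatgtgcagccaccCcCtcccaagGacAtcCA
Among all windows of 50 bases in coding transcripts, 17.1% of those of Csf2rb and 19.3% of those of Csf2rb2 also occurred in another gene, nearly all of them in the other member of the pair. In windows of 100 bases these shares were 6.46% and 7.05%. No source used here states the read length or how reads with several matches were treated. With the pair summed into 1 row the value rose from 5869 ± 783 to 8337 ± 127 (SD, n = 3 each), which is 0.51 on the log2 scale (SE 0.10; limma adjusted p = 0.0121).

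The 250 bases before the RefSeq start of Csf2ra (chr19:61228419-61228668) and of Csf2rb2 (chr15:78305722-78305971), both on the minus strand of GRCm38 and from RefSeq, show where the 4 motifs match in genes that rose together. Capitals mark the matches.
Csf2ra: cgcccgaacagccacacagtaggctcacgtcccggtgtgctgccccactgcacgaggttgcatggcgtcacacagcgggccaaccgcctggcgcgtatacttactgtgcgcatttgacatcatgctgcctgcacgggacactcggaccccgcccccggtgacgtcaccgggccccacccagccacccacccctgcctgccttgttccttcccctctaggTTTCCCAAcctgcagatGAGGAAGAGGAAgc
Csf2rb2: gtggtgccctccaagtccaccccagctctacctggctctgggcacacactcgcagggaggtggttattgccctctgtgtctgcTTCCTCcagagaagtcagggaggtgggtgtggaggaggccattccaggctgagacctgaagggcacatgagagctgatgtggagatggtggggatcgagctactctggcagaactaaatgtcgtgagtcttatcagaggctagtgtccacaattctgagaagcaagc
Csf2ra held a pair of adjoining GAGGAA matches 14 and 8 bases before its start and a TTNCNNAA match 31 bases before it. Csf2rb2 held 1 GAGGAA match, read on the other strand. Of the 7 receptor genes with a sequence in the RefSeq table, 5 held GAGGAA in this window (Kit, Csf2ra, Csf2rb2, Csf3r and Il6ra), against 23.25% of all 32851 promoters. TTNCNNAA was found in 3 of 7, against 36.85% of all, and in Il6ra 1 match to it overlapped the GAGGAA match. TGTGGT and TGACAG were found in 0 of 7, against 14.05% and 15.86% of all. GAGGAA was found in the windows of Csf2ra, Csf2rb2 and Csf3r, which rose, in those of Kit and Il6ra, which did not pass, and not in those of Flt3 and Il3ra, which fell. With so few genes this is a description only. By the GENCODE gene starts the windows of Kit, Csf2ra, Csf3r and Il3ra also reach into the gene.

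Il3ra, the alpha chain for interleukin 3 on chromosome 14 (14346275 to 14356011), went the opposite way from its beta chains. Its normalised read counts were 565, 605 and 820 in WT and 242, 222 and 227 in E531R. Every E531R library was lower than every WT library, and WT replicate 3 was the highest of all. The log2 fold change was -1.50 (SE 0.15; limma adjusted p = 0.000528), and without WT replicate 3 it was -1.34. The promoter window printed with that of Flt3 is chr14:14346245-14346494, plus strand. It ends at the RefSeq start, while the GENCODE start at 14346275 lies inside it, so most of it is within the gene by GENCODE.

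Csf3r, the receptor for granulocyte colony-stimulating factor on chromosome 4 (126024550 to 126044440), had 1001, 982 and 1043 normalised reads in WT and 1272, 1359 and 1262 in E531R. The groups did not overlap, and the change was the smallest of the 5 that passed upward. The log2 fold change was 0.36 (SE 0.069; limma adjusted p = 0.0106). Of its windows of 50 bases 11.4% also occur in another gene, most of them in a processed pseudogene, against 0.411% of windows of 100 bases. The Csf3r call was lost without E531R replicate 1 (limma adjusted p = 0.0573) or E531R replicate 2 (limma adjusted p = 0.0718). Markers listed for mature neutrophils moved with it: 9 of 9 tested rose, against 10.4% of all genes tested. The summed level of the 10 listed ran from 6446 to 8718 in WT and from 67859 to 75397 in E531R. Most of that sum was S100a8 (2081 ± 354 to 25931 ± 1664), Ngp (3323 ± 714 to 20750 ± 953) and S100a9 (1266 ± 127 to 19325 ± 1244; SD, n = 3 each). Cxcr2 rose only from 19.5 to 32.6, and Mmp9, with a WT mean of 5.14, was tested only through E531R. Retnlg, a gene of late neutrophils, had at most 2 reads over a group. The list name therefore does not show that mature cells were present. The part of these cells in the Csf3r result was not tested.

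Il6ra, the ligand-binding chain for interleukin 6 on chromosome 3 (89864059 to 89913196), had 682, 693 and 742 normalised reads in WT and 802, 703 and 795 in E531R. It was the only receptor gene of the 9 whose groups overlapped. For Il6ra the log2 fold change was 0.12 (SE 0.085; limma adjusted p = 0.386), with a 95% interval from -0.08 to 0.32. Il6st, its signalling partner, did not pass either, with 368 ± 28.6 against 424 ± 23.2 normalised reads (SD, n = 3 per group; log2 fold change 0.21, limma adjusted p = 0.183).

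Plain ratios of 2 genes in the same library do not depend on how libraries were scaled, and they compare the chains of 1 receptor. The log2 differences and their tests used value + 1, so for low genes they depend in part on the scaling. With 3 libraries against 3 the exact two-sided permutation test cannot go below 0.10, and 6 ratios were compared. The ratio of Csf2ra to Csf2rb was 1.00, 0.962 and 0.756 in WT and 1.30, 1.23 and 1.17 in E531R. So alpha chain reads outnumbered beta chain reads in every E531R library and in no WT library (difference of the log2 ratio 0.45, exact permutation p = 0.1, Benjamini-Hochberg adjusted 0.12). These reads are not divided by exon length. Per kilobase of exon Csf2ra lay above Csf2rb in every library, in WT with 1686, 1597 and 1596 against 665, 655 and 832. Only the shift between the groups is therefore read from this ratio. The ratio of Il3ra to Csf2rb went the other way, from 0.126 ± 0.00931 in WT to 0.0320 ± 0.000948 in E531R cells (SD, n = 3 each). Its log2 difference was -1.97 (exact permutation p = 0.1, adjusted 0.12).

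The ratio of Csf2rb2 to Csf2rb was 0.125 ± 0.00633 in WT and 0.160 ± 0.00735 in E531R cells (SD, n = 3 each), with no overlap and a log2 difference of 0.36. The ratio of Csf1r to Csf3r was 0.139, 0.182 and 0.206 in WT and 0.783, 0.709 and 0.863 in E531R, a log2 difference of 2.17. The ratio of Flt3 to Kit fell from 0.0119 ± 0.000706 to 0.00179 ± 0.000302 (SD, n = 3 each), a log2 difference of -2.55 with 1 added to each value. Flt3 had 4.87 to 6.81 normalised reads in E531R, so the added 1 makes this log2 difference smaller than the plain ratios give. Each of these 3 ratios reached the smallest p the exact permutation test allows, 0.1 (adjusted 0.12). The ratio of Il6ra to Il6st was 1.93 ± 0.247 and 1.81 ± 0.0916 (SD, n = 3 each) with a log2 difference of -0.09 (exact permutation p = 0.6, adjusted 0.6), and the groups overlapped.

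**Figure D3:**
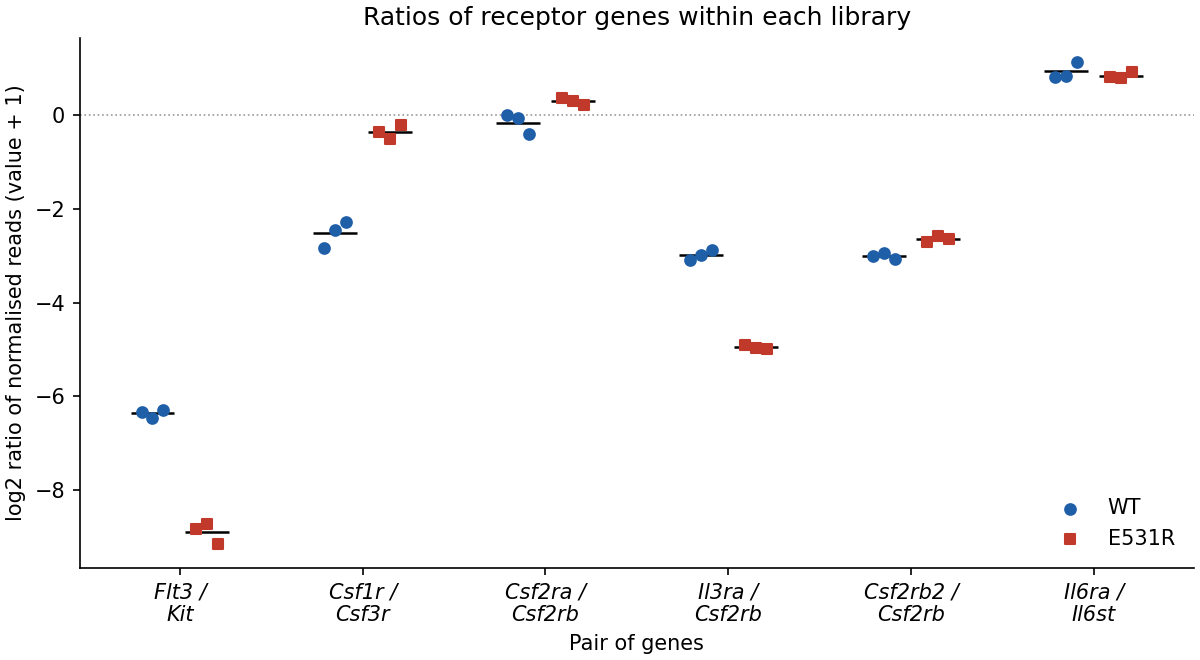
Log2 ratio of normalised reads (value + 1) of 6 pairs of genes (x axis) within each library; blue circles are WT, red squares E531R, black bars the mean of 3 libraries and the dotted line equal values. The groups are separate for 5 of the 6 pairs and overlap for Il6ra over Il6st. Reads are not divided by exon length here, so the dotted line does not mark equal transcript levels.

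Around the receptors, 7 lists with 117 genes were read from the same fit, and 92 of these genes could be tested. In E531R cells 27 were higher and 7 lower, together 37.0% against the 19.9% of all genes tested, and the median log2 fold change was 0.18 against 0.01. Without WT replicate 3 these counts were 55 higher and 19 lower, while 47.2% of all genes tested were then called. Without E531R replicate 2 they were 17 and 6. With any 1 E531R replicate left out, 804 to 823 of all genes tested were higher and 764 to 806 lower. The counts of single lists with a library left out are to be read beside these.

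Of the 9 ligand genes, 2 could be tested. Csf1, which encodes macrophage colony-stimulating factor, the ligand of Csf1r, rose from 175 ± 15.4 to 277 ± 23.8 normalised reads (SD, n = 3 per group; log2 fold change 0.66, limma adjusted p = 0.00695). Flt3l, the gene of FLT3 ligand, had 158 ± 3.12 in WT and 164 ± 4.34 in E531R (log2 fold change 0.05, limma adjusted p = 0.743). The genes of stem cell factor (Kitl), GM-CSF (Csf2), G-CSF (Csf3) and interleukin 6 (Il6) had at most 8 reads over the 3 libraries of a group. Il3, Il5 and Il34 had 0 reads in all 6 libraries. A count of 0 in the largest library allows up to 3 of its 33459668 reads.

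Among other cytokine receptor chains, 15 of 22 could be tested, and 4 rose and 4 fell, against 10.4% and 9.53% of all genes tested. Il7r, the interleukin 7 receptor chain, rose from 4.15 ± 2.41 to 84.3 ± 6.46 normalised reads (SD, n = 3 per group; log2 fold change 4.15, limma adjusted p = 0.000233). Its WT values rest on 2, 6 and 3 reads. With a WT mean under the minimum of 10, Il7r was tested only because it was high in E531R. Of those that fell, the smallest adjusted p-values were those of Ifngr1, the interferon gamma receptor chain (7201 ± 66.0 to 4584 ± 94.5), Il10rb (1404 ± 58.0 to 947 ± 25.9) and Il11ra1 (1063 ± 212 to 459 ± 33.2). Il5ra, the interleukin 5 chain that also uses Csf2rb, had 0 reads in all 6 libraries. The counts without WT replicate 3 were 7 higher and 5 lower, while 47.2% of all genes tested were called. Without any 1 of the E531R replicates 2 were higher.

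Among other receptor tyrosine kinases, 10 of 19 could be tested, with 2 higher and 2 lower, against 10.4% and 9.53% of all genes tested. Axl and Mertk, which bind dying cells through bridging proteins, rose: Axl from 18.5 ± 5.10 to 94.1 ± 20.8 normalised reads (SD, n = 3 each), and Mertk from 2 reads in all WT libraries to 192 in all E531R libraries. With a WT mean of 0.765, under the minimum of 10, Mertk was tested only through E531R. Pdgfrb, a platelet-derived growth factor receptor, fell from 128 ± 30.7 to 11.3 ± 1.42, and Ddr1, a collagen receptor, from 88.0 ± 1.68 to 40.1 ± 6.67. The list median was -0.04, and without WT replicate 3 the counts were 4 and 4, while 47.2% of all genes tested were called. With a minimum mean of 50, 1 was higher.

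Inside the cell, 11 of 11 JAK and STAT genes could be tested, and 3 rose and 0 fell, against 10.4% and 9.53% of all genes tested. Jak2, the kinase that the beta chains and Csf3r use, rose from 857 ± 213 to 1605 ± 88.3 normalised reads (SD, n = 3 per group; log2 fold change 0.94, limma adjusted p = 0.0129). Jak1 rose from 4734 ± 105 to 5825 ± 85.2 (limma adjusted p = 0.0129) and Stat4 from 102 ± 16.6 to 149 ± 9.30 (limma adjusted p = 0.0457). The STAT5 genes, main targets of these receptors, did not pass: Stat5a had 1953 ± 209 and 1587 ± 16.3, and Stat5b 1989 ± 235 and 2147 ± 96.7. The list's count of higher genes turned on single libraries. It was 9 without WT replicate 3, 1 without E531R replicate 1, and 0 without E531R replicate 2 or 3. Of all genes tested, 47.2% were called without WT replicate 3. The count of lower genes was 1 without WT replicate 2 or 3. Stat4 also missed the threshold with DESeq2 on recovered reads (adjusted p = 0.0523) and with the replicate number as a block (limma adjusted p = 0.0716).

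All 31 kinases, adaptors and effectors near the receptors could be tested, with 9 higher and 1 lower, against 10.4% and 9.53% of all genes tested. Fgr, a kinase gene of the Src family, rose from 21.2 ± 8.93 to 304 ± 7.83 normalised reads (SD, n = 3 each). Plcg1, a phospholipase gene, rose from 354 ± 8.04 to 866 ± 12.3, and Pik3r5, a regulatory subunit of PI 3-kinase gamma, from 181 ± 7.73 to 484 ± 24.3. The gene that fell was the adaptor Gab1, from 238 ± 29.5 to 68.4 ± 13.8, singled out after its values were seen. With WT replicate 3 left out, 20 were higher and 3 lower, while 47.2% of all genes tested were called.

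Of 18 attenuators of receptor signals 6 rose and 0 fell, against 10.4% and 9.53% of all genes tested. Ptpn6 (SHP-1), a phosphatase that acts on Kit and on the beta chains, rose from 4675 ± 687 to 7339 ± 197 normalised reads (SD, n = 3 per group; log2 fold change 0.66, limma adjusted p = 0.0056). Ptpn22 rose from 260 ± 35.9 to 604 ± 8.24, Sla, an adaptor that promotes receptor loss, from 1734 ± 82.5 to 2815 ± 82.5, and Ptprj from 372 ± 33.0 to 639 ± 40.0. With WT replicate 3 left out, 11 were higher and 5 lower, while 47.2% of all genes tested were called.

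Of 7 genes of receptor shedding 5 could be tested, and 2 rose and 0 fell, against 10.4% and 9.53% of all genes tested. The count of higher genes was 1 without any 1 of the E531R replicates and 1 with a minimum mean of 50, since in each of these Timp1 lay under the minimum and was not tested. It was 3, with 1 lower, without WT replicate 3, when 47.2% of all genes tested were called. Adam8, also among the genes nearest to Csf1r, rose from 93.0 ± 8.97 to 529 ± 18.4 normalised reads (SD, n = 3 each), and Timp1, a protease inhibitor gene, had 2 reads in WT summed and 75 in E531R summed. With a WT mean of 0.915, under the minimum of 10, Timp1 was tested only through E531R. Adam17 and Adam10, proteases known to cut receptors from the cell surface, did not pass, with log2 values of 0.03 (limma adjusted p = 0.869) and 0.23 (limma adjusted p = 0.431).

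**Figure D4:**
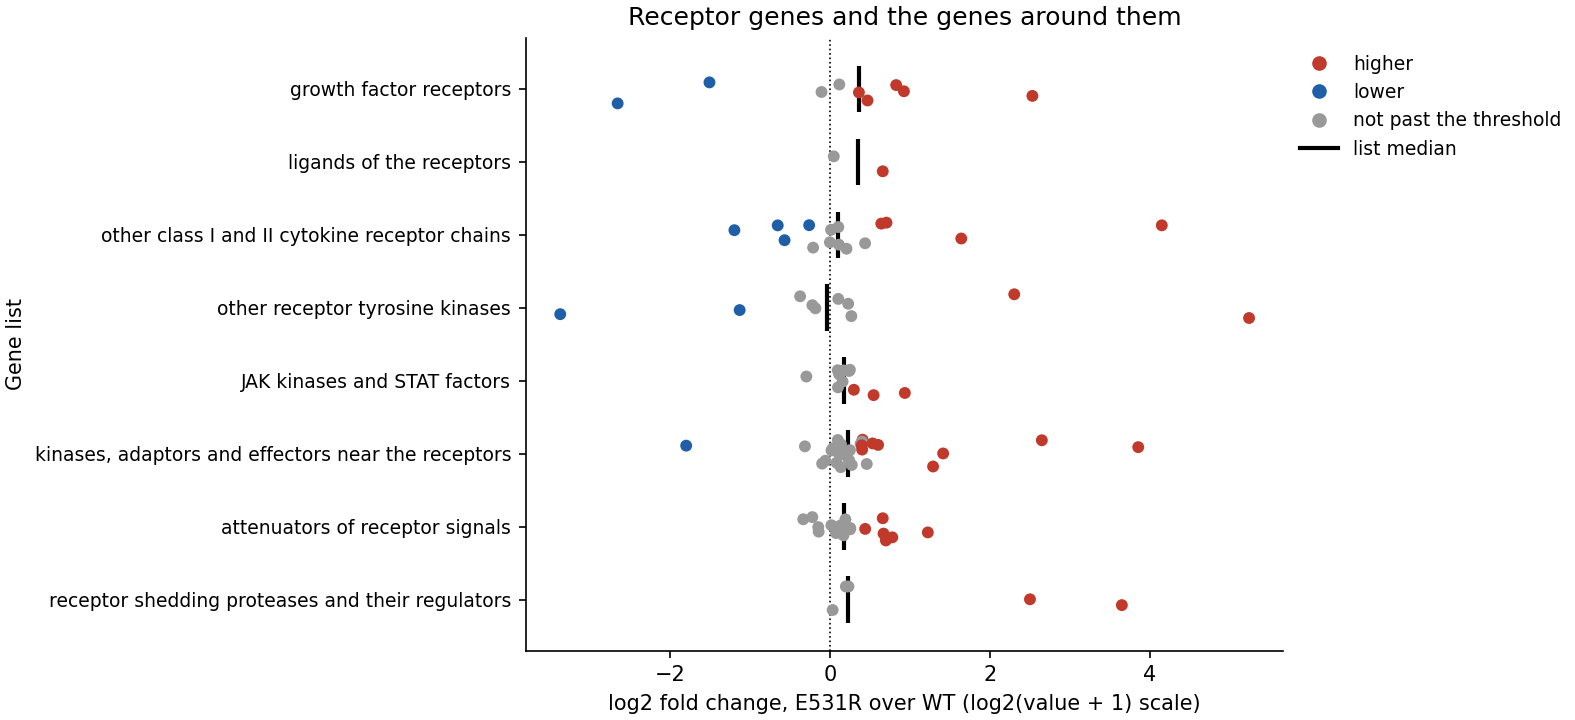
Log2 fold change of E531R over WT (x axis) of each tested gene of the 9 growth factor receptors and of 7 lists around them (rows); genes past the threshold are red or blue and the rest grey, with a black bar at each median. The receptor median lies at 0.36, that of other cytokine receptor chains at 0.11 and that of other receptor tyrosine kinases at -0.04.

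The label of the cells as myeloid progenitors was checked against 12 markers, which include Kit and Flt3. All 12 could be tested, with 4 higher (Cd34, Mpo, Prtn3 and Spi1) and 2 lower (Ctsg and Flt3). Of all genes tested 10.4% were higher and 9.53% lower, and the other counts in this paragraph are to be read beside these shares. The summed level of the 12 ran from 300577 to 369584 normalised reads in WT and from 362928 to 379171 in E531R. Most of that sum was Mpo (93563 ± 7296 to 137253 ± 1862), Ctsg (68375 ± 11394 to 37851 ± 1718) and Elane, which did not pass (67552 ± 11184 to 80438 ± 4298; SD, n = 3 each). Mast cells also depend on Kit, and of their markers Cpa3, Mcpt4, Tpsb2, Tpsab1, Cma1 and Fcer1a had at most 2 reads over any group. Of the 11 mast cell and basophil markers 4 could be tested, and 0 rose and 2 fell, with a summed level of 396 to 468 in WT and 326 to 361 in E531R. Of 10 dendritic cell markers, a cell type that depends on Flt3, 4 could be tested, and 2 rose and 1 fell, with summed levels of 1212 to 1585 and 1153 to 1273. Those that rose, Cd74 and Itgax (5.22 and 4.84 in WT), and H2-Ab1, which fell (0.788 in E531R), were under the minimum of 10 in 1 group. They were tested only through the group where they were high, so these counts do not measure a change in dendritic cells. The part of these cells in the Kit and Flt3 results was not tested. Erythroid, B cell and T and NK cell markers had 1 tested gene each, of which 0 rose and 1, in the T and NK list, fell. Eosinophil markers had 2 higher of 2 tested, megakaryocyte markers 3 higher of 4, and stroma and endothelium markers 2 lower of 3. Of all genes tested 10.4% were higher and 9.53% lower. The eosinophil markers tested were Ear2 and Siglecf, while Prg2, Prg3, Epx and Ccr3 had at most 8 reads over any group. The list names therefore do not show that these cells were present. Of the megakaryocyte markers that rose, Gp1bb and Pf4 had WT means of 5.62 and 5.48 and were tested only through E531R.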

How the data were processed

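The receptor genes, gene lists, tests and alternatives were chosen with earlier results of these data known. The submitters' processing notes name GRCm38 and the tools HISAT2, featureCounts, DESeq2, FastQC, cutadapt and SAMtools. Their versions, the annotation and the strand setting were not given. The deposited signal values are gene counts that the authors divided by 1 size factor per library; 100% of values came out as whole reads within 0.001. Per the file headers the authors' deposited table also holds a log2 fold change, p-values and a test score per gene. That table gives the 9 receptor genes the same directions and calls as the test used here.

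Genes were tested with limma 3.58.1 (trended variance, R 4.3.3) on log2(value + 1), over those with a mean of at least 10, two-sided, with Benjamini-Hochberg adjustment over all genes tested. The minimum applied to the mean over the 6 libraries, so a gene under it in 1 group was tested only if higher in the other. Such genes could enter the test only with some difference between the group means. Among them are Flt3, Gpr183, Il7r, Mertk, Timp1 and several markers. Log2 fold changes on this scale understate the change of low genes, and folds are ratios of mean values. The procedure was tested on simulated data. Named genes are the 9 receptors, their ligands, Il6st, up to 4 called genes of each list with the smallest adjusted p, and the 3 genes nearest in profile to the receptors with the largest rise and fall. 1 gene that this rule names is not reported here. Other genes, such as markers, Gab1 and the STAT5 pair, were picked after seeing their values. Kit, Flt3, Ptprc, Epor, Pdgfrb and Kdr stand in a marker list and among the receptors or their lists.

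Exon lengths, positions and transcripts come from GENCODE M21 and promoters from RefSeq, both on GRCm38. Coding sequences were aligned with Biopython 1.88. Promoters of Csf1r and Csf2rb are not shown. Floors of 3 reads and 95% Poisson intervals cover counting error only. The alternatives tried were edgeR 4.0.16, DESeq2 1.42.0 and limma voom on recovered reads, rescaling by TMM or upper quartile, pseudocounts of 0.5 and 10, no minimum mean or one of 50, the replicate number as a block, the beta chains summed, and leaving out each library. edgeR, run on the recovered reads, put 1393 genes higher and 1251 lower.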

Additional observations from a re-analysis of the deposited data

How the results depend on the processing

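All 9 receptor genes kept their direction under every alternative run, and Flt3, Csf1r, Csf2ra, Csf2rb2 and Il3ra passed the threshold wherever they were tested. Flt3 was not tested with a mean of at least 50, which left 1 receptor gene lower. Leaving out 1 library at a time gave 3 to 5 receptor genes higher and 2 to 3 lower, 804 to 3169 of all genes higher and 764 to 2974 lower, and 17 to 55 genes of the 7 lists higher and 6 to 19 lower. The higher ends of these ranges came without WT replicate 3. The log2 ratio of Il6ra to Il6st ran from -0.15 to 0.013 when 1 library was left out, and its sign turned from -0.09 without WT replicate 3. With the replicate number as a block, 1179 genes were higher and 1062 lower, 5 receptor genes were higher and 2 lower, and among the named genes only the call of Stat4 was lost. Same-numbered libraries deviated together with correlations of 0.00174, 0.192 and 0.238, and not every library correlated best with its own number, so the numbers were not taken as pairs. Flt3 rests on 5 to 9 reads in an E531R library, which limits its fold.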

Other observations

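The Kit values of the 3 E531R libraries differed less than counting error alone would give: their SD was 0.122% of their mean, while the counting error of a single library was 1.44% to 1.71%. In WT the SD was 2.79% of the mean, against a counting error of 1.49% to 2.08%. An SD from 3 libraries can fall well under its expected value, and Kit was picked after the values were seen. The SD was also under the counting error for Flt3 in WT (7.29% against 13.4% to 18.9%) and in E531R (16.8% against 33.3% to 44.7%). So was that of Il3ra in E531R (4.51% against 5.36% to 6.62%). For the other receptor genes and groups the SD lay within or above the counting error. In WT replicate 1, Csf2ra and Csf2rb each had 3033 reads, so their values there are equal. In the other 5 libraries their read numbers differed.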
